A study of Oryctolagus cuniculus with 6 samples.

Results

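Desmosome and adherens junction genes were examined in primary limbal stem cells (LSCs) of the rabbit. The 10 genes, CDH1, CDH3, DSG2, DSG3, DSC2, DSC3, DSP, JUP, PKP1 and PKP3, were chosen by name for their place in these junctions. Of the 22190 genes in the deposited table, 9 are members, since PKP3 is not among its identifiers and was not analysed here. All 9 passed the filter on low counts, which left 15029 genes.

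RNA-seq was performed on LSCs that grew out of pieces of limbus. Fresh and preconditioned cells gave 3 libraries each. The fresh group came from fresh limbal tissue. For the preconditioned group, whole corneas were frozen in cryomedium with serum, dimethyl sulfoxide and 10 ng/mL IL-1β, an inflammatory cytokine, and were kept in liquid nitrogen for 7 days before the explants were plated. The explants were grown in keratinocyte medium, as described for thawed tissue. All preconditioned tissue had both freezing and IL-1β, whose effects cannot be told apart. The sources used here give neither the strain and age of the rabbits nor which animal each library came from, so p-values measure the spread between libraries, which may be technical.

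Epithelial cells hold on to each other mainly through adherens junctions and desmosomes. In adherens junctions, classical cadherins such as E-cadherin bind the same cadherin on the next cell and are tied to actin by catenins. In desmosomes, desmogleins and desmocollins form the bond, and plakoglobin, plakophilins and desmoplakin link it to keratin filaments. Stratified epithelia such as the cornea and limbus are rich in both, and P-cadherin, desmoglein 3 and desmocollin 3 are known as cadherins of the basal layers.

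The libraries held 31952352 to 34327534 counts on genes, and each member had between 2324 and 59270 counts in each library. Expression is given as CPM, the counts of a gene per 1000000 counts of its library after TMM scaling, and differences were tested with edgeR's quasi-likelihood test. A gene was called when its p, adjusted by Benjamini-Hochberg over all tested genes, was at most 0.05 and its log2 fold change was 1 or more in either direction, the study's cutoffs. Over all tested genes 344 were called, 163 higher and 181 lower in preconditioned LSCs, and 142 and 423 when only library totals were used for scaling. Preconditioned replicate 1 lay at 2.27 on the first principal component, between the fresh libraries at -39.3 to -29.5 and the other preconditioned libraries at 44.1 and 53.1. Epithelial markers were present in every library, with KRT5 at 7333 to 11735 CPM and TP63 at 112 to 246 CPM in the 6 libraries. Of the defining markers of other cells, TYR (melanocytes) was at most 0.0304 CPM, CDH5 (vascular endothelium) at most 0.224 CPM and PTPRC (leukocytes) at most 1.5 CPM in any library. Some other markers of these cells were higher. PECAM1 was at 2.30 to 2.98 CPM in fresh libraries and at 0.882, 12.8 and 4.97 in preconditioned replicates 1 to 3. CD14 was at 4.39 to 7.82 CPM in fresh libraries and at 3.59, 11.4 and 2.37 CPM in the same replicates. MITF was at 4.22 to 5.44 CPM in fresh and 2.19 to 3.69 CPM in preconditioned libraries. The summed level of 10 keratocyte and fibroblast markers was 529 to 1144 CPM in fresh and 1298 to 2321 CPM in preconditioned libraries. The other 9 markers without COL1A1 overlapped, at 472 to 1035 and 778 to 1629 CPM, and 4 of the 10 had a negative log2 fold change. The sum of 7 leukocyte markers was 107 to 137 and 128 to 325 CPM, most of it CD68. All 6 tested leukocyte markers had positive log2 fold changes, from 0.02 to 1.30, and none was called. The 7 melanocyte markers summed to 4.75 to 5.96 and 2.77 to 6.38 CPM, and the 6 endothelial markers to 3.12 to 3.39 and 1.19 to 13.3 CPM. The part of these markers in the results below was not tested. In such bulk samples, fewer cells of a type and less RNA per cell cannot be told apart.

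None of the 9 junction genes was called, against 2.29% of all tested genes, 1.08% higher and 1.20% lower (edgeR's quasi-likelihood test). On the adjusted p alone the count was also 0, against 5.08% of all tested genes, while 2 (22.2%), DSG2 and DSC2, had an unadjusted p under 0.05, against 30.6% of all tested genes. DESeq2 called none of them either, against 7.78% of the genes to which it gave an adjusted p. On the adjusted p alone DESeq2 passed 1, DSG2, against 19.1%. Their log2 fold changes ran from -0.65 for CDH3 to 0.66 for DSG2, with a median of 0.16 beside 0.01 over all tested genes. The 95% interval of the fold change stayed within 2-fold in either direction for 6 of the 9 genes, the others being CDH3, DSG2 and DSG3. Fresh and preconditioned libraries were fully separated for 3 genes (33.3%), close to the 36.7% among all tested genes. DSG2 and PKP1 were higher (17.9% of all tested genes) and CDH3 was lower (18.8%) in every preconditioned library. The interval was computed per gene and was not adjusted for the number of genes.

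**Figure D1:**
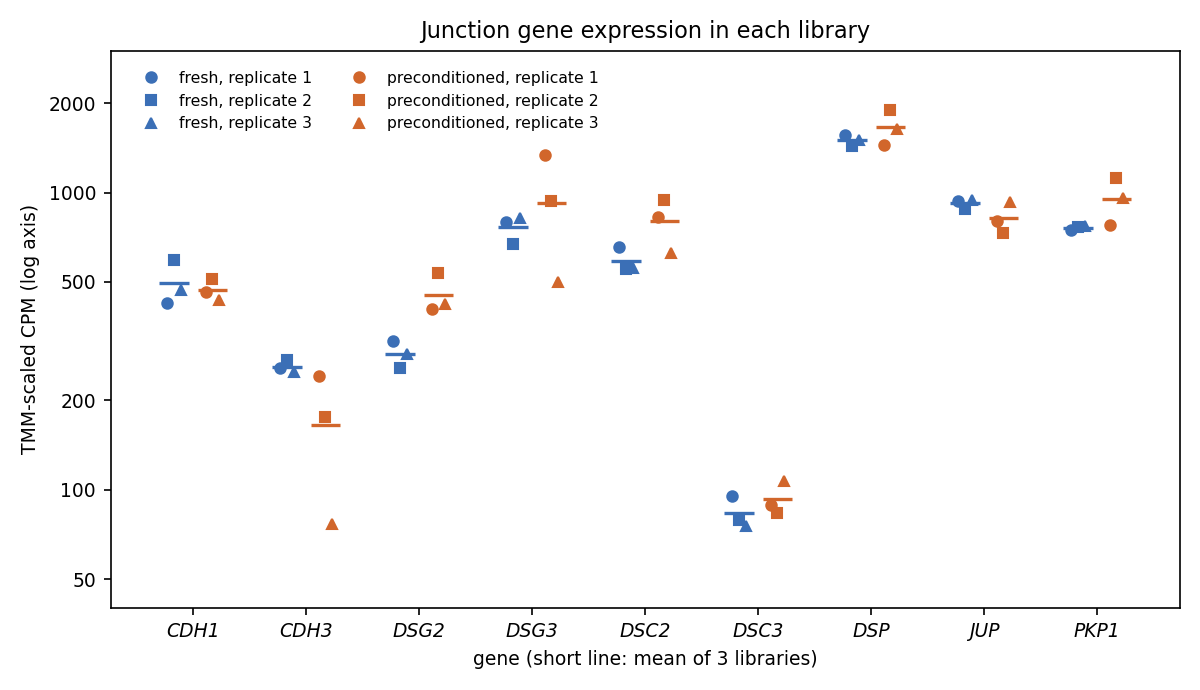
TMM-scaled CPM on a log axis of 9 junction genes in 3 fresh and 3 preconditioned libraries, with a point per library and a line at each group mean. DSP is the gene with the highest CPM and DSC3 the lowest in the fresh group, and the preconditioned points of CDH3 (76.5 to 242 CPM) and DSG3 (500.1 to 1334 CPM) spread most.

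All members were well expressed. Levels are compared between genes per length, as the authors' FPKM. In the fresh group, JUP had the highest level of the 9 with 313 ± 12.2 FPKM (SD, n = 3), which ranked 233 among the 15029 tested genes. PKP1 followed with 190.4 ± 3.77 FPKM, then DSP with 164 ± 7.01 and DSG3 with 161 ± 17.4 FPKM (SD, n = 3 each), and the last pair differed by less than its spread. CDH1 had 112 ± 19.4, DSC2 91.7 ± 8.69 and CDH3 80.6 ± 3.62 FPKM (SD, n = 3 each), where CDH1 and DSC2 overlapped between libraries. DSG2 had 55.0 ± 5.49 FPKM and DSC3 19.8 ± 2.34 FPKM (SD, n = 3 each). The ranks of 8 genes fell within the first 10% of tested genes, from 1.55% for JUP to 9.67% for DSG2, and DSC3 stood at 24.5%.

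CDH1 encodes E-cadherin, the main classical cadherin of epithelia. It was at 426, 590.4 and 468 CPM in fresh replicates 1 to 3 and at 463, 513 and 436 CPM in preconditioned replicates 1 to 3. The groups overlapped, and the log2 fold change was -0.07 (standard error 0.15, edgeR adjusted p = 0.77) with a 95% interval of 0.744-fold to 1.21-fold. Without fresh replicate 2 the value was 0.07, of the other sign.

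CDH3 encodes P-cadherin, the classical cadherin of basal epithelial cells. Its level in fresh replicates 1 to 3 was 257, 272 and 248 CPM. In preconditioned replicates 1 to 3 it was 242, 175 and 76.5 CPM, so that every preconditioned library lay below every fresh library, replicate 1 only just. On the log2 scale the fold change was -0.65 (standard error 0.37, edgeR adjusted p = 0.27), and the 95% interval reached from 0.345-fold to 1.17-fold. Without preconditioned replicate 1 the log2 fold change was -1.05 (edgeR adjusted p = 0.081), and without preconditioned replicate 3 it was -0.31 (edgeR adjusted p = 0.30). The highest and lowest library differed 1.1-fold among fresh and 3.17-fold among preconditioned libraries. CDH3 and CDH1 are neighbouring protein-coding genes in the rabbit assembly mOryCun1.1, which may not be the build of the counts and was used for gene order alone.

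DSG2 encodes desmoglein 2, the desmoglein found in all tissues with desmosomes. It was at 316, 257 and 285 CPM in fresh replicates 1 to 3. Preconditioned replicates 1 to 3 had 404, 535 and 421 CPM, all above the fresh libraries. The log2 fold change of 0.66 (standard error 0.15) had an edgeR adjusted p of 0.0505, just above the threshold, and an interval of 1.24-fold to 2.02-fold. With the DESeq2 Wald test the adjusted p was 0.0040 and the log2 fold change 0.66. With a library left out, the edgeR adjusted p ranged from 0.017 without preconditioned replicate 1 to 0.17 without fresh replicate 2. In each of these fits the log2 fold change was positive and under the fold cutoff.

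DSG3 encodes desmoglein 3, a desmoglein of basal and suprabasal layers and the antigen of pemphigus vulgaris. Fresh replicates 1 to 3 had 797, 669 and 822 CPM. Preconditioned replicates 1 to 3 had 1334, 939.8 and 500.1 CPM, so that replicates 1 and 2 lay above and replicate 3 below the fresh libraries. The log2 fold change was 0.28 (standard error 0.33, edgeR adjusted p = 0.60) and became -0.09 without preconditioned replicate 1 and 0.58 without preconditioned replicate 3. The spread of log2(CPM + 0.5) within the preconditioned group was 0.72 (SD, n = 3) for DSG3 and 0.85 for CDH3, against a median of 0.25 over all tested genes. In the fresh group it was 0.16 and 0.07, against 0.18. The SD was larger in the preconditioned group for 8 of the 9 genes, all but CDH1, and it was also larger in the median of all tested genes.

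DSC2 encodes desmocollin 2, the widely expressed desmocollin. It had 655, 552 and 556 CPM in fresh replicates 1 to 3 and 828, 945 and 626 CPM in preconditioned replicates 1 to 3. Preconditioned replicates 1 and 2 lay above all fresh libraries and replicate 3 within their range. On the log2 scale the fold change was 0.44 (standard error 0.17, unadjusted p = 0.035 and adjusted p = 0.14 from edgeR). DSC3 encodes desmocollin 3, the partner of desmoglein 3 in basal layers. It had 94.8, 78.9 and 75.7 CPM in the fresh group and 88.7, 83.5 and 107 CPM in the preconditioned group. Its log2 fold change was 0.16 (standard error 0.14, edgeR adjusted p = 0.47), and it was -0.01 with library size alone and 0.05 to 0.26 with a library left out. The groups overlapped for both desmocollins.

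JUP encodes plakoglobin, an armadillo protein found in desmosomes and adherens junctions alike. It was at 936, 881 and 945 CPM in fresh replicates 1 to 3 and at 803, 729.8 and 926 CPM in preconditioned replicates 1 to 3, where replicate 3 lay within the fresh range and the others below it. The log2 fold change was -0.17 (standard error 0.13, edgeR adjusted p = 0.40), and it ranged from -0.26 without preconditioned replicate 3 to -0.09 without preconditioned replicate 2.

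PKP1 encodes plakophilin 1, which strengthens desmosomes of stratified epithelia. Its fresh libraries were nearly equal at 749.7, 765 and 772 CPM, whereas the preconditioned replicates 1 to 3 had 776, 1123 and 962 CPM. The groups did not overlap, although preconditioned replicate 1 was only just above the fresh libraries. On the log2 scale the fold change was 0.32 (standard error 0.15, edgeR adjusted p = 0.20), and 0.44 without preconditioned replicate 1 (edgeR adjusted p = 0.036, where 25.2% of all genes tested without that library had an adjusted p of at most 0.05). Without preconditioned replicate 2 it was 0.19 (edgeR adjusted p = 0.49).

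DSP encodes desmoplakin, which anchors keratin filaments at the desmosome. It was at 1564, 1430 and 1505 CPM in fresh replicates 1 to 3 and at 1447, 1894 and 1631 CPM in preconditioned replicates 1 to 3. The groups overlapped. The log2 fold change was 0.14 (standard error 0.13, edgeR adjusted p = 0.50), with a 95% interval of 0.888-fold to 1.38-fold, and it was -0.03 with library size alone and 0.04 to 0.22 with a library left out.

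**Figure D2:**
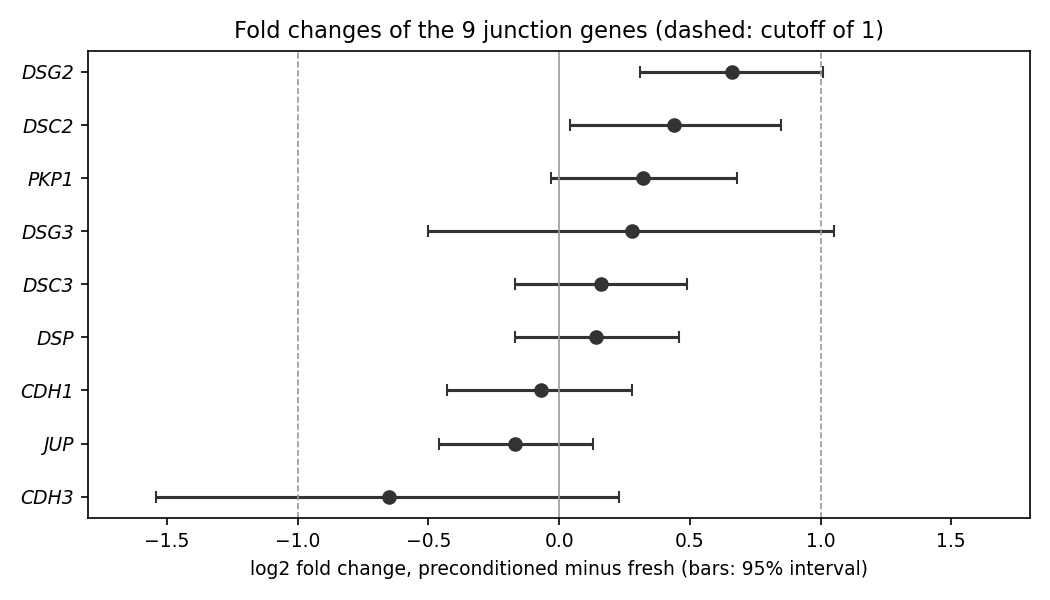
Log2 fold changes (preconditioned minus fresh) of the 9 junction genes from edgeR, with bars for the 95% interval and dashed lines at the fold cutoff of 1 in either direction. The points lie between -0.65 (CDH3) and 0.66 (DSG2), and the bars of CDH3, DSG2 and DSG3 cross a dashed line.

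Because a ratio of related genes within a library does not depend on the scaling of libraries, the makeup of each cadherin family was compared on the authors' FPKM. DSG3 made up 68.6%, 68.1% and 74.3% of the summed desmoglein FPKM in fresh replicates 1 to 3, and DSG2 24.8%, 23.9% and 23.5%. In preconditioned replicates 1 to 3, DSG3 made up 74.5%, 62.9% and 53.4%, and DSG2 20.6%, 32.7% and 41.0%. Desmoglein 1, a desmoglein of differentiated upper layers, gave 2.14% to 7.99% of the sum, and desmoglein 4 had at most 1 count in any library. In terms of the ratio of DSG3 to DSG2, preconditioned replicate 1 lay above the fresh range of 2.76 to 3.16 with 3.61, and preconditioned replicates 2 and 3 below it with 1.92 and 1.30. The mean log2 ratio was 1.55 ± 0.10 in the fresh and 1.06 ± 0.74 in the preconditioned group (SD, n = 3 each; exact 2-sided permutation test, p = 0.40).

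The ratio of CDH3 to CDH1 was 0.826, 0.632 and 0.728 in fresh replicates 1 to 3. It was 0.718, 0.468 and 0.241 in preconditioned replicates 1 to 3, so that replicate 1 lay within the fresh range and the other libraries below it. The difference of the mean log2 ratios was -0.74 (exact 2-sided permutation test, p = 0.20, n = 3 each). CDH1 thus held 54.7% to 61.2% of the summed FPKM of CDH1, CDH2 and CDH3 in the fresh group and 58.2%, 68.1% and 80.5% in preconditioned replicates 1 to 3. N-cadherin (CDH2), known from mesenchymal and neural cells, held at most 0.290% in any library.

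The ratio of DSC3 to DSC2 was 0.208 to 0.221 in the fresh group and 0.163, 0.135 and 0.260 in preconditioned replicates 1 to 3, on both sides of the fresh range (difference of mean log2 ratios -0.27, exact 2-sided permutation test, p = 0.40, n = 3 each). DSC2 held 79.3% to 88.1% of the desmocollin FPKM in the 6 libraries. With a library left out, the difference ranged from -0.88 (without preconditioned replicate 1) to -0.15 (without preconditioned replicate 3) for DSG3 to DSG2. It ranged from -1.11 to -0.32 for CDH3 to CDH1 without the same libraries, and from -0.54 (without preconditioned replicate 3) to -0.07 (without preconditioned replicate 2) for DSC3 to DSC2. These 3 ratios were tested together, each with an adjusted p of 0.40 from the exact permutation test, and 0.10 is the smallest p that 3 libraries against 3 allow. Each preconditioned group mean lay below the fresh mean, but the spread of the preconditioned libraries (SD of log2 ratios 0.49 to 0.79) was wider than that of the fresh libraries (0.05 to 0.19).

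**Figure D3:**
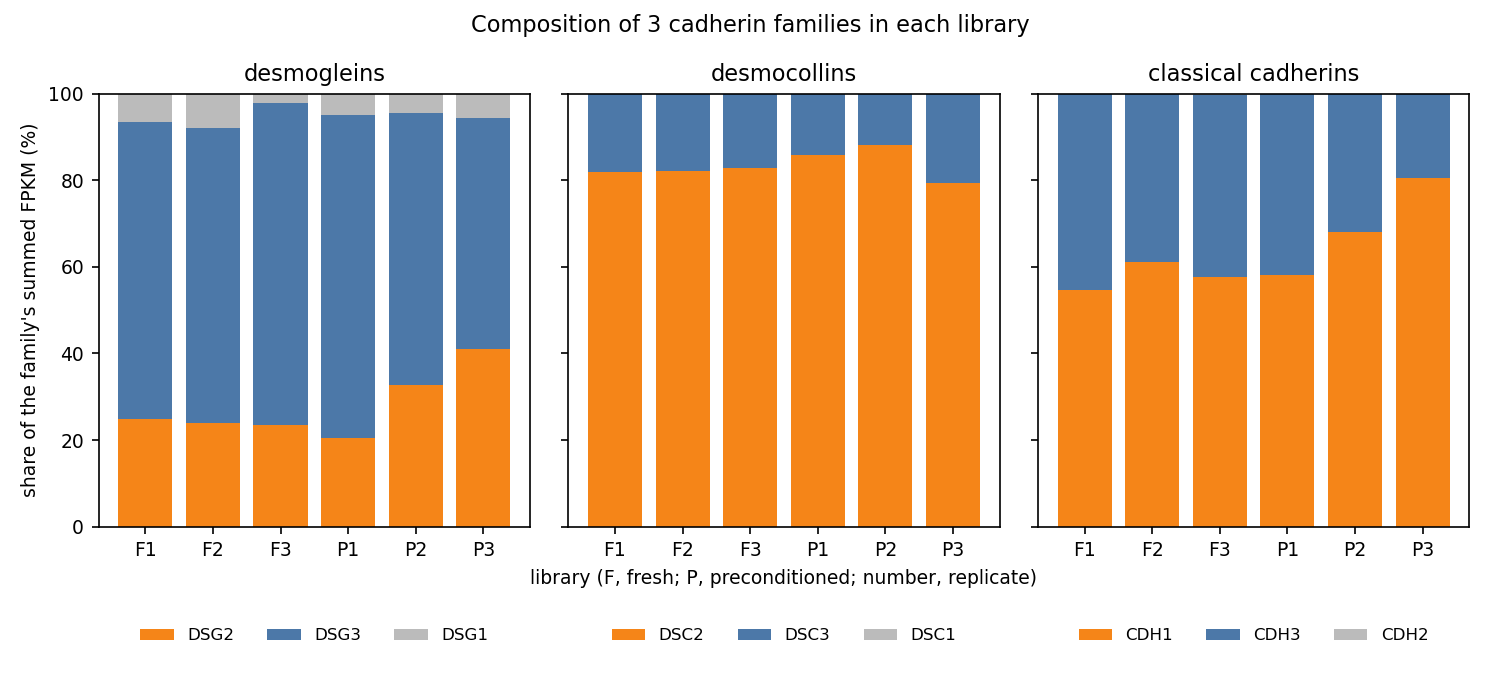
Share of each family's summed FPKM, in percent, held by the genes of the desmogleins, the desmocollins and the classical cadherins, with a bar for each of 3 fresh (F) and 3 preconditioned (P) libraries. DSG2 reached 41.0% and CDH1 80.5% in preconditioned replicate 3, while CDH2, DSC1 and DSG4 (DSG4 is not drawn) are too low to be seen.

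The other junction genes were taken list by list. Lists without a called gene held 2 of 7 other desmosomal genes with an unadjusted edgeR p under 0.05, 9 of 15 catenins and actin linkers, 1 of 7 nectin genes, 3 of 7 other cadherins, 3 of 14 transcription factors, 3 of 6 hemidesmosome genes and 0 of 5 keratins, beside 4596 of 15029 tested genes. In these lists DESeq2 called CTNND2 and PLEKHA7 among the catenins and linkers, CDH17 among the cadherins and SNAI1 among the transcription factors. DESeq2 called 7.78% of all genes to which it gave an adjusted p. CTNND2 had only 2 to 46 counts in a library. Without preconditioned replicate 1, edgeR also called PLEKHA7 (log2 fold change -1.67, adjusted p = 0.047) and CDH17 (1.31, adjusted p = 0.037), beside the genes given for the lists below. That fit called 9.99% of all genes tested in it. With any other library left out, the edgeR adjusted p was 0.13 to 0.28 for PLEKHA7 and 0.15 to 0.30 for CDH17.

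Among 8 other desmosomal genes, 7 were tested and none was called. PERP, a membrane protein needed for stable desmosomes in stratified epithelia, had an adjusted p under the threshold. Of all tested genes, 2.88% passed that limit and were higher. It was at 917, 929 and 795 CPM in the fresh group and at 1404, 1544 and 1276 CPM in the preconditioned group, with no overlap, a log2 fold change of 0.68 (standard error 0.13) and an edgeR adjusted p of 0.039. With a library left out, its adjusted p was at most 0.05 in 1 of 6 edgeR fits, without preconditioned replicate 1 (0.018), and 0.078 to 0.15 in the others. By limma it was 0.054 on log2(FPKM + 1) and 0.055 on log2(FPKM + 0.1). Periplakin (PPL), a plakin of upper layers, had 420.4, 565 and 218 CPM in fresh replicates 1 to 3 and 368, 161 and 161 CPM in preconditioned replicates 1 to 3, with overlapping groups (log2 fold change -0.80, edgeR adjusted p = 0.27, and -1.33 without preconditioned replicate 1 and -0.48 without fresh replicate 2). The second plakophilin, PKP2, was at 24.7 to 28.3 CPM in all fresh and at 24.4 to 25.2 CPM in all preconditioned libraries (edgeR adjusted p = 0.58). DSG1 (edgeR adjusted p = 0.78) and envoplakin under the symbol EVPL (edgeR adjusted p = 0.45) overlapped between groups. DSC1, the desmocollin of the epidermal surface, was barely detected, at 0.0820 to 0.225 CPM in the fresh and 0.456 to 0.575 CPM in the preconditioned group (log2 fold change 1.79, edgeR adjusted p = 0.078).

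Of 17 catenins and actin linkers, 15 were tested and none was called. The 3 catenins that bind E-cadherin or link it to actin had log2 fold changes of at most 0.35. α-catenin (CTNNA1) was at 613, 584 and 565 CPM in the fresh and 743, 792 and 716 CPM in the preconditioned group, without overlap (log2 fold change 0.35, standard error 0.11, edgeR adjusted p = 0.081). β-catenin (CTNNB1) was at 494 to 552 and 559 to 679 CPM (log2 fold change 0.21, edgeR adjusted p = 0.29), and p120-catenin (CTNND1) at 473 to 511 and 484 to 557 CPM (log2 fold change 0.06, edgeR adjusted p = 0.75).

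At an adjusted p of at most 0.05 without the fold cutoff, 1 gene of that list was higher and 1 lower, against 2.88% and 2.20% of all tested genes, and both were singled out after their values were seen. VEZT encodes vezatin, a membrane protein of adherens junctions, and had 64.7, 58.9 and 83.3 CPM in the fresh and 120.2, 129 and 102 CPM in the preconditioned group (log2 fold change 0.76, edgeR adjusted p = 0.047). ACTN1 encodes α-actinin 1, which crosslinks actin, and had 322, 308 and 327 CPM in the fresh and 225, 196 and 174 CPM in the preconditioned group (log2 fold change -0.68, edgeR adjusted p = 0.039). Each passed that limit in 1 of 6 edgeR fits with a library left out, the fit without preconditioned replicate 1, and reached an adjusted p of 0.16 (VEZT) and 0.15 (ACTN1) in the others. VEZT also missed it with library size alone (edgeR adjusted p = 0.060) and in both limma fits (adjusted p = 0.086 and 0.082). The paralogue of ACTN1, ACTN4, had 1072 to 1266 CPM in the fresh and 1419 to 1548 CPM in the preconditioned group (log2 fold change 0.35, edgeR adjusted p = 0.098), so that the 2 α-actinins had fold changes of opposite sign.

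Nectins are immunoglobulin-like adhesion molecules that help to start adherens junctions, and afadin (AFDN) ties them to actin. None of the 7 genes of this list was called. NECTIN1 was at 516 to 544 CPM in the fresh and 365 to 489 CPM in the preconditioned group, without overlap (log2 fold change -0.30, edgeR adjusted p = 0.18). NECTIN3, picked out after its values were seen, was at 68.0 to 102 and 125 to 148 CPM, also without overlap (log2 fold change 0.68, edgeR adjusted p = 0.055). NECTIN4 (0.20), NECTIN2 (-0.05) and AFDN (-0.28) had smaller log2 fold changes, with edgeR adjusted p values from 0.20 to 0.80. Of 11 other cadherins in the table, 7 were tested and none was called. Of these CDH13 (T-cadherin) had the highest level by FPKM, with 38.9 to 77.0 CPM in the fresh and 35.2 to 100.1 CPM in the preconditioned group, and CDH2 had at most 2.46 CPM in any library. CDH11, CDH17 and CDH24 had edgeR adjusted p values of 0.71, 0.12 and 0.27.

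**Figure D4:**
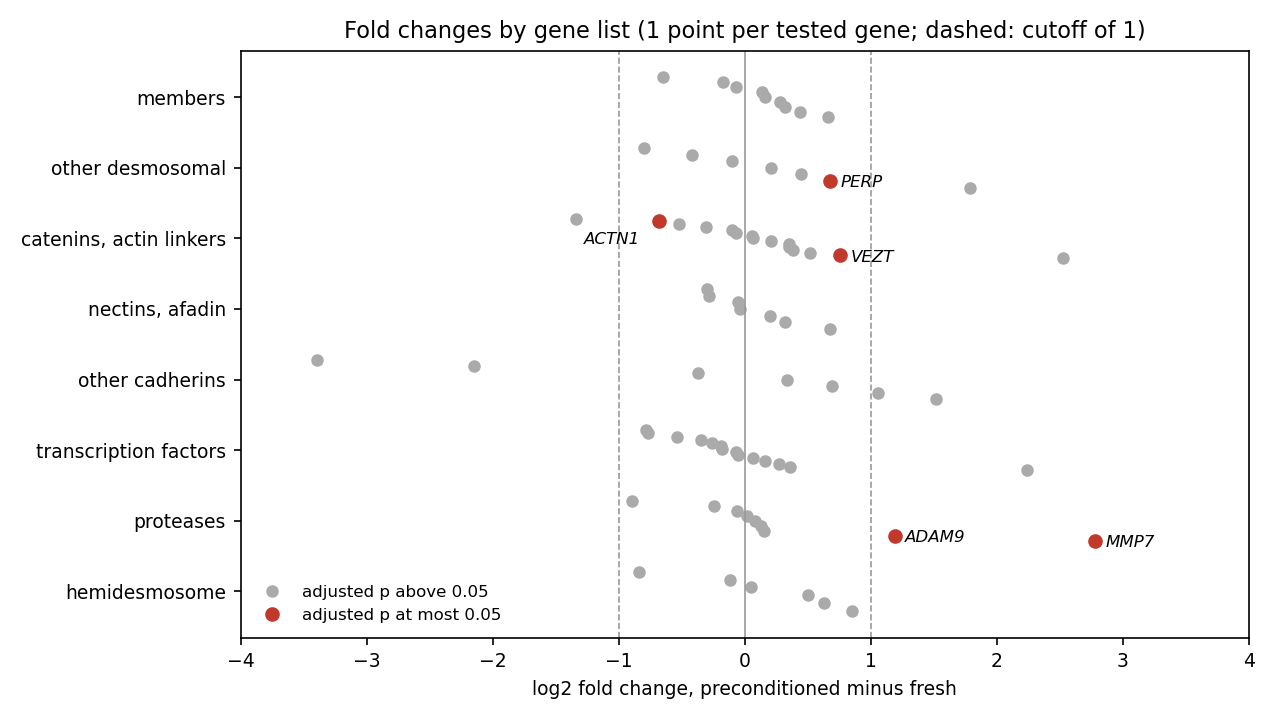
Log2 fold changes (preconditioned minus fresh) of the tested genes of the junction members and 7 related lists, with a point per gene, in red where edgeR's adjusted p was at most 0.05. The members lie between -0.65 and 0.66, and ADAM9 (1.19) and MMP7 (2.78) are the red points beyond the fold cutoff of 1.

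Transcription factors that act on cadherin and desmosome genes were examined next. None of the 14 was called (edgeR), with log2 fold changes positive for 5 and negative for 9. p63 (TP63), which drives desmosome genes in stratified epithelia, was at 246, 226 and 238 CPM in fresh replicates 1 to 3 and at 183, 122 and 112 CPM in preconditioned replicates 1 to 3. The groups did not overlap, and the fold change was -0.77 on the log2 scale (standard error 0.19, edgeR adjusted p = 0.059). GRHL2, an activator of CDH1, was at 62.9 to 82.7 CPM in the fresh and 35.6 to 59.1 CPM in the preconditioned group (log2 fold change -0.78, edgeR adjusted p = 0.073). SNAI2, a repressor of cadherin genes, was at 33.1 to 38.5 and 36.8 to 39.9 CPM (log2 fold change 0.07, edgeR adjusted p = 0.72). SNAI1, a repressor of CDH1, was low in both groups, at 0.492, 2.0 and 1.15 CPM in the fresh and 6.81, 6.74 and 3.65 CPM in the preconditioned group (log2 fold change 2.24, edgeR adjusted p = 0.054). GRHL2 and SNAI1 were picked out after their values were seen. Without preconditioned replicate 1, edgeR called 3 of the 14, against 9.99% of all genes tested without it, namely TP63 (-1.03, adjusted p = 0.0040), GRHL2 (-1.06, adjusted p = 0.0070) and SNAI1 (2.08, adjusted p = 0.048). With any other library left out, none of these was called. The edgeR adjusted p was then 0.13 to 0.19 for TP63, 0.11 to 0.22 for GRHL2 and 0.091 to 0.17 for SNAI1. SNAI1 was also called by edgeR with no filter on low counts (adjusted p = 0.038) and by limma on log2(FPKM + 1) (adjusted p = 0.048). It was not called by limma on log2(FPKM + 0.1) (adjusted p = 0.051) or with the replicate block (edgeR adjusted p = 0.10). GRHL1, KLF4 and KLF5 overlapped between groups, with edgeR adjusted p values from 0.29 to 0.61.

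Proteases that can cut junctional cadherins held 2 called genes among 9 tested, both higher in the preconditioned group, against 1.08% of all tested genes called higher. ADAM9, a membrane metalloprotease, rose from 497, 397 and 571 CPM in the fresh group to 884, 1312 and 1147 CPM in the preconditioned group (log2 fold change 1.19, standard error 0.20, edgeR adjusted p = 0.035). MMP7 (matrilysin) rose from 0.666, 1.15 and 0.547 CPM to 6.81, 4.73 and 4.74 CPM (log2 fold change 2.78, standard error 0.39, edgeR adjusted p = 0.028). Both genes were also called without preconditioned replicate 1. Without each other library in turn, the edgeR adjusted p was 0.074 to 0.13 for ADAM9 and 0.060 to 0.11 for MMP7. ADAM10, the main sheddase of E-cadherin, had 229 to 243 CPM in the fresh and 219.8 to 257 CPM in the preconditioned group (log2 fold change 0.02, edgeR adjusted p = 0.91). ADAM17 (0.08) and MMP14 (-0.06) had log2 fold changes near 0 as well, with overlapping groups.

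None of the 6 hemidesmosome genes, which fix basal cells to the basement membrane, was called. ITGB4 (β4 integrin) was at 498 to 709 CPM in the fresh and 767 to 1011 CPM in the preconditioned group (log2 fold change 0.63, edgeR adjusted p = 0.071), while ITGA6, COL17A1 and CD151 overlapped between groups (edgeR adjusted p from 0.11 to 0.85). The other members, plectin (PLEC) and dystonin (DST), which tie the plaque to the cytoskeleton, had log2 fold changes of -0.84 (edgeR adjusted p = 0.17) and 0.85 (edgeR adjusted p = 0.16). Both were called without preconditioned replicate 1 (-1.33 and 1.10, edgeR adjusted p = 0.015 and 0.050), where 9.99% of all tested genes were called, and had -0.55 and 0.41 without preconditioned replicate 3 (edgeR adjusted p = 0.29 and 0.37). The 5 keratins of the desmosome list that are in the table were not called either. KRT5, the basal keratin anchored by desmoplakin, was at 8382 to 10683 and 7333 to 11735 CPM (edgeR adjusted p = 0.90). KRT16, a keratin of activated epithelium, was at 589, 444 and 413 CPM in fresh replicates 1 to 3 and at 466, 259 and 99.4 CPM in preconditioned replicates 1 to 3 (log2 fold change -0.81, edgeR adjusted p = 0.31). Its value was -1.44 without preconditioned replicate 1 and -0.41 without preconditioned replicate 3. KRT17, another keratin of activated epithelium, was at 22.4 to 58.7 CPM in the fresh and 13.4 to 42.8 CPM in the preconditioned group (log2 fold change -0.71, edgeR adjusted p = 0.37, and -1.16 to -0.37 with a library left out). KRT3, the keratin of differentiated corneal epithelium, ranged from 409 to 2654 CPM within the fresh group and from 239 to 800.3 CPM in the preconditioned group (log2 fold change -1.21, edgeR adjusted p = 0.30, and -0.25 without fresh replicate 2).

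Of the cell type lists, 3 marker genes were called, 1 of 7 tested on the epithelial, 1 of 4 on the corneal and 1 of 10 on the stromal list, against 2.29% of all tested genes. CLDN4, a claudin on the epithelial list, rose (log2 fold change 1.22, edgeR adjusted p = 0.046). TKT, the enzyme transketolase on the corneal list, fell (log2 fold change -1.06, edgeR adjusted p = 0.048). COL1A1, on the stromal list, rose from 91.2 ± 29.8 to 578 ± 100.3 CPM (SD, n = 3 each; log2 fold change 2.66, edgeR adjusted p = 0.015). With a library left out, CLDN4 and TKT were called in 1 of 6 edgeR fits, that without preconditioned replicate 1, and otherwise reached adjusted p values of 0.14 and 0.16. CLDN4 was not called by limma on log2(FPKM + 1) (adjusted p = 0.054) or log2(FPKM + 0.1) (adjusted p = 0.052). COL1A1 was called in 4 of 6 fits, with 0.069 without fresh replicate 2 and 0.067 without preconditioned replicate 2. COL1A2 (log2 fold change 1.11, edgeR adjusted p = 0.17, and 1.79 without fresh replicate 3), VIM (0.43, edgeR adjusted p = 0.50) and DCN (-0.13, edgeR adjusted p = 0.92) on the same list overlapped between groups. On the stromal list 6 log2 fold changes were positive and 4 negative, from -1.27 for KERA to 2.66. On the corneal list, PAX6 had a log2 fold change of 0.81 (edgeR adjusted p = 0.11, and 1.07 with 0.0060 without preconditioned replicate 1) and CLU 0.09 (edgeR adjusted p = 0.78). ELF3 on the epithelial list had 0.68 (edgeR adjusted p = 0.075). No gene of the melanocyte, endothelial and leukocyte lists was called, where 2 of 7, 2 of 6 and 6 of 7 were tested. DESeq2 called TYRP1 and CD68, against 7.78% of all genes to which it gave an adjusted p. Without preconditioned replicate 1, edgeR called 1 gene on each of these 3 lists, TYRP1 (adjusted p = 0.0088), PECAM1 (0.027) and CD68 (0.0043). That fit called 9.99% of all genes tested in it. With any other library left out, the edgeR adjusted p was 0.23 to 0.29 for TYRP1, 0.39 to 0.90 for PECAM1 and 0.18 to 0.23 for CD68. PECAM1 had a log2 fold change of 0.18 without preconditioned replicate 2. With all libraries the edgeR adjusted p values were 0.12 for TYRP1, 0.32 for PECAM1 and 0.085 for CD68.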

How the data were processed

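RNA-seq was analysed in 3 fresh and 3 preconditioned libraries, grouped by their titles. The authors aligned reads with hisat2 and deposited raw gene counts made by htseq-count, together with FPKM values that scale each count by library total and gene length. The build, annotation and strand setting are not given in the sources used here, so reads of overlapping antisense genes cannot be told apart. Counts were filtered with filterByExpr, scaled by TMM and tested with edgeR 4.0.16 in R 4.3.3, with condition as the only factor and Benjamini-Hochberg adjustment over 15029 genes. Standard errors and 95% intervals were derived from the F statistic. Ratios of FPKM were compared by exact permutation in SciPy 1.17.1. Alternatives were DESeq2 1.42.0, other scalings and filters, limma 3.58.1 on log2(FPKM + 1) and log2(FPKM + 0.1), glmTreat, the replicate number as a block, and leaving out each library. Replicates of a group differed by more than sampling noise (chi-square per degree of freedom 38.4 to 117).

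Members and lists were chosen with earlier results of these data known. Named genes are the members, called genes and the 4 highest of each list by mean FPKM over all libraries, and CTNNA1, CTNNB1, CTNND1, PKP2, PERP, PPL, EVPL, CDH2, SNAI2 and TP63 as direct partners or regulators. For the melanocyte, endothelial and leukocyte lists the rule was not applied. DSC1, VEZT, ACTN1, NECTIN3, SNAI1, GRHL2, DST, PLEC, KERA, CD14, MITF and the genes called only in an alternative were added after their values were seen. The ratio of PKP1 to PKP3 and the planned motif search in promoters were not run here.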

Additional observations from a re-analysis of the deposited data

How the results depend on the processing

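The alternatives left the junction genes uncalled in each of the 16 other settings, and 136 of 144 values of their log2 fold changes kept their sign. DSC3 turned to -0.01 with library size alone and with both limma fits on FPKM, and DSP to -0.03 in the same settings, in which the median of all tested genes moved from 0.01 to between -0.16 and -0.09. With any 1 library left out, CDH1 ranged from -0.17 to 0.07 and DSG3 from -0.09 to 0.58. On the adjusted p alone, DSG2 passed the threshold with DESeq2, DESeq2's size factors, both other filters and without preconditioned replicate 1. With DESeq2 alone, 19.1% of genes passed that limit.

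The number of called genes among all tested was 344 and became 1190 with DESeq2, 565 with library size alone, 521 with limma on log2(FPKM + 0.1), 24 with glmTreat, 763 without the fold cutoff and 30 with the replicate block, and ranged from 14 (without fresh replicate 2) to 1546 (without preconditioned replicate 1) when a library was left out. In the other lists 5 genes were called, and 11 with DESeq2, 1 with the replicate block (COL1A1), 0 with glmTreat (6 at an unadjusted p under 0.05), 8 without the fold cutoff, and 0 (without fresh replicate 2 or preconditioned replicate 2) to 16 (without preconditioned replicate 1) when a library was left out. Libraries of the same number did not deviate together (Pearson's r across genes -0.073, -0.08 and -0.123). Across numbers, r was 0.263 for fresh replicate 1 with preconditioned replicate 3. It was 0.157 for fresh 2 with preconditioned 1, and 0.269 for fresh 3 with preconditioned 2. The other pairs had -0.237 to -0.075, and a shared animal was not tested. The number is not stated to mark a shared animal, so the replicate block is given as an alternative only. With the block DSG2 had a log2 fold change of 0.66 (edgeR adjusted p = 0.13).

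With library size alone, the log2 fold change reversed for ADAM10 (-0.15), ADAM17 (-0.09), COL17A1 (-0.11), CTNND1 (-0.11), KLF5 (-0.00), SNAI2 (-0.10) and CLU (-0.08). The limma fits gave -0.15, -0.09 and -0.10, -0.12, -0.11, -0.04, -0.09 and -0.10, and -0.09 for these genes in that order, and CDH11 was 0.01 with the replicate block. With a library left out, ranges that crossed 0 were -0.03 to 0.07 for ADAM10, -0.78 to 0.59 for CDH11, -0.11 to 0.21 for CLU, -1.37 to 0.26 for DCN, -0.03 to 0.18 for COL17A1, -0.01 to 0.09 for CTNND1, -0.18 to 0.46 for DSG1, -0.10 to 0.27 for KLF5, -0.25 to 0.11 for KRT5, -0.15 to 0.10 for MMP14, -0.10 to 0.01 for NECTIN2 and -0.02 to 0.72 for VIM. Ranges of 1 sign that moved by over 1.5 times were 0.01 to 0.11 for ADAM17, -0.37 to -0.17 for AFDN, 0.05 to 0.66 for CDH13, -2.58 to -0.76 for CDH2, 0.43 to 0.97 for CDH24, 0.12 to 0.25 for CTNNB1, 0.16 to 0.74 for EVPL, -0.43 to -0.16 for GRHL1, -0.23 to -0.05 for ITGA6, -0.41 to -0.19 for NECTIN1, -0.16 to -0.07 for PKP2 and 0.00 to 0.11 for SNAI2, besides those given with the genes. Counts were few for DSC1 (3 to 18), CDH2 (3 to 90), SNAI1 (17 to 71 in fresh libraries) and the called gene MMP7 (20 to 41 in fresh libraries), and the part of depth was not tested. For these results the cause was not tested.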

Other observations

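The deposited table holds 2 entries described as envoplakin, a plakin of the desmosome and cornified envelope, and the second was chosen after its values were seen. EVPL was at 27.1, 21.5 and 11.2 CPM in fresh replicates 1 to 3 and at 31.3, 16.8 and 33.8 CPM in preconditioned replicates 1 to 3. LOC100359342 was at 48.0, 66.4 and 34.5 CPM in fresh replicates 1 to 3 and at 28.6, 12.1 and 3.69 CPM in preconditioned replicates 1 to 3, without overlap (log2 fold change -1.74, edgeR adjusted p = 0.14, and -2.66 with an edgeR adjusted p of 0.039 without preconditioned replicate 1). EVPL gave 24.4% to 36.1% of the CPM of both entries in the fresh libraries and 52.3%, 58.0% and 90.2% in preconditioned replicates 1 to 3. The sum of both was 45.7 to 87.9 CPM in the fresh and 28.9 to 60.0 CPM in the preconditioned group, with overlap. The counting could have split reads between such copies, so the value of either entry alone is uncertain.

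PNN (pinin), a protein described in the deposited table as desmosome associated and also known for a role in splicing, was chosen after its values were seen. It was at 87.8, 84.4 and 79.6 CPM in the fresh and at 58.3, 55.9 and 56.7 CPM in the preconditioned group. The log2 fold change of -0.56 (SE 0.09, edgeR adjusted p = 0.037) is under the fold cutoff. On the adjusted p alone, 5.08% of all tested genes passed with edgeR and 19.1% with DESeq2. The adjusted p was 0.00068 with DESeq2 and 0.10 with the replicate block, and with a library left out it was at most 0.05 in 1 of 6 fits, without preconditioned replicate 1 (edgeR).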
